A study of Homo sapiens with 2 samples.

Results

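The CCAAT/enhancer-binding proteins (C/EBP) and the Tribbles pseudokinases were described in Hep3B cells, an established cell line from a human liver cancer, in a library labelled for Glehnia littoralis extract (GLE), made from a plant of sandy coasts, and in its control. The members were 7 genes chosen by symbol, CEBPA, CEBPB, CEBPD, CEBPG, CEBPE, TRIB1 and TRIB2, out of 43424 symbols in the count files, and all 7 were listed. One library came from wild-type Hep3B cells labelled as the GLE test, and the other from wild-type Hep3B cells labelled as the DMSO control, DMSO being a common solvent. There was 1 library in each group, so no test between conditions was possible, and culture, preparation and extract cannot be told apart. The sources used here do not give the dose or time of GLE for the sequenced cells, or whether the GLE cells also received DMSO.

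C/EBP proteins carry a basic region that contacts DNA and a leucine zipper through which they pair with each other and with other basic leucine zipper (bZIP) factors. In hepatocytes C/EBP alpha is known for maintaining liver gene expression and restraining growth, C/EBP beta and delta for the acute phase response to cytokines, and C/EBP gamma for pairing with ATF4 under amino acid and oxidative stress. Tribbles proteins resemble kinases but have little or no catalytic activity. TRIB1 and TRIB2 are known to hold C/EBP alpha against the ubiquitin ligase COP1, which leads to its degradation, so that part of their biology lies in protein turnover and is not seen in messenger RNA.

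The libraries were made from 500 ng of total RNA with a 3′-end kit, in which each polyadenylated transcript is read near its tail. The GLE library held 3636351 counts and the DMSO library 5618328. Levels are in CPM, counts divided by the library total and brought to a common scale by the trimmed mean of M-values (TMM), and ratios are GLE over DMSO with exact Clopper-Pearson 95% intervals. These intervals treat each read as independent and hold no spread between cultures or preparations, since each group has 1 library. Without molecular identifiers several reads may come from 1 molecule, so the intervals may be too narrow even for counting error. All 12 hepatocyte and hepatoma markers were measured, with a summed level of 12784 CPM in the GLE library and 15010 CPM in the DMSO library. APOA2 alone held 7146 CPM in GLE and 7232 CPM in DMSO. Of these markers 2 were at least 2-fold lower in GLE, against 10.5% of the 11068 genes with at least 30 counts. At least 2-fold higher were 0, against 9.54%. The counting interval was below 1 for 9 of the 12, against 30.1%, and above 1 for 1, against 27.7%. Their median log2 ratio was -0.45. Endothelial markers summed to 5.94 CPM in GLE and 10.6 CPM in DMSO, and among them PECAM1 had 1 count in GLE and 36 in DMSO. The others did not share this difference as a set. EGFL7 had a ratio of 1.07 (0.517 to 2.13), ESAM had 5 counts in GLE and 0 in DMSO, and TIE1 had 0 and 2. The other 6 had 0 counts in both libraries. Fibroblast markers summed to 21.8 CPM in GLE and 7.10 CPM in DMSO, of which COL1A1 was 8.20 CPM in GLE and 0.692 CPM in DMSO. Of these 10 markers only 1, COL1A1, had at least 30 counts over both libraries. PDGFRA went the other way, with 0 counts in GLE and 13 in DMSO. COL3A1, with 5 and 7 counts, and PDGFRB, with 3 and 4, had intervals that included 1. Mitochondrial ribosomal RNA took 13.2% of counts in the GLE library and 8.52% in the DMSO library, and with library sizes that leave out the mitochondrial and the 20 most abundant genes the ratio was 0.349 for CEBPA, 0.439 for CEBPD and 0.574 for TRIB1. A smaller number of cells expressing a gene and less of its RNA per cell cannot be told apart in bulk RNA.

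CEBPA and CEBPD were lower in the GLE library by more than 2-fold, TRIB1 was lower by less than that, CEBPB was slightly lower, and CEBPG showed no difference detectable at this depth. CEBPE had no counts and TRIB2 had a handful, so neither could be compared. Of the 5 members with at least 30 counts over both libraries, 2 were at least 2-fold lower, where 10.5% of the 11068 genes so measured were, and 0 were at least 2-fold higher, where 9.54% were. The counting interval lay below 1 for 4 of the 5, against 30.1% of measured genes, and above 1 for 0, against 27.7%. With the trend of ratios with transcript GC content removed, an alternative chosen after seeing the data, 1 of the 5 was at least 2-fold lower, against 8.56% of 10125 genes. The interval then lay below 1 for 3 of the 5, against 27.6%.

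**Figure D1:**
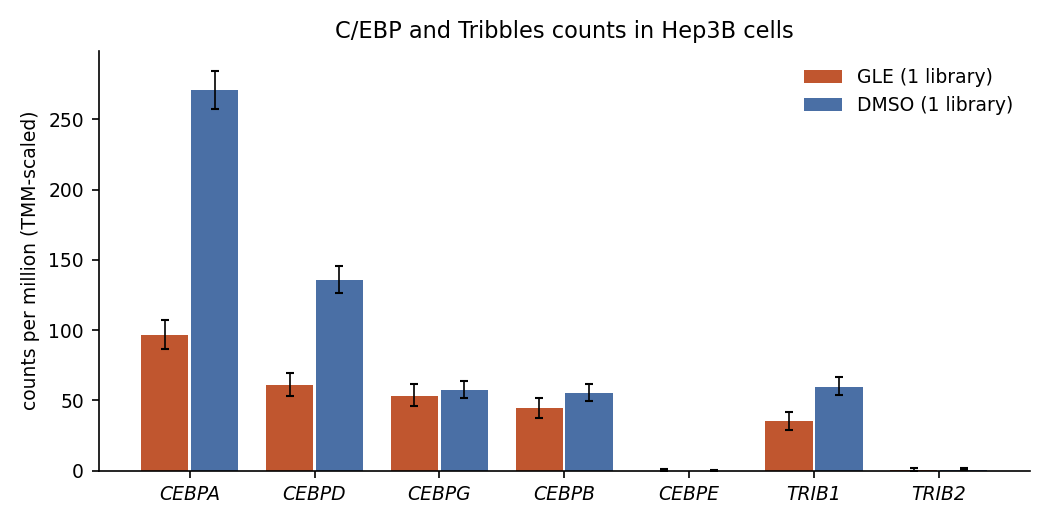
Bars give the TMM-scaled level (CPM) of each C/EBP and Tribbles gene in the GLE library (left bar, 1 library) and the DMSO library (right bar, 1 library), and error bars give exact Poisson 95% intervals of the count. CEBPA stood at 96.7 CPM in the GLE library and 271 CPM in the DMSO library, while the bars of CEBPG lay at 53.2 CPM and 57.6 CPM with overlapping intervals.

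CEBPA, which encodes C/EBP alpha, lies on chromosome 19 (33299934 to 33302534, GRCh38). It had 342 counts or 96.7 CPM in the GLE library, against 1565 counts or 271 CPM in the DMSO library. The GLE level was 2.80-fold lower (2.49 to 3.16), and the intervals of the 2 levels, 86.7 to 108 CPM in GLE and 258 to 285 CPM in DMSO, did not overlap. The whole ratio interval, 0.317 to 0.402, lay below 0.5, as did that of 2.86% of measured genes. By log2 ratio, -1.48, CEBPA ranked 468 from the lowest of the 11068 measured genes. The fold was 2.73 to 2.96 over 6 other scalings and depths, and the ratio was 0.437 (0.388 to 0.492) with the GC trend removed.

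CEBPA-DT, a long non-coding RNA that starts on the opposite strand 287 bases from the CEBPA start, had 0 counts in the GLE library and 58 counts or 10.0 CPM in the DMSO library. Against a floor of 3 counts in the GLE library it was at least 11.8-fold lower. The upper end of its ratio interval, which also takes in the error of the DMSO count, was 0.107. On the other side of CEBPA the nearest measured gene was LRP3, a lipoprotein receptor-related gene 91070 bases away, with 5.94 CPM in the GLE library and 17.7 CPM in the DMSO library, 2.97-fold lower (1.85 to 5.01). CEBPG, on the far side of CEBPA-DT at a distance of 68652 bases, had a ratio of 0.923, and PEPD, a peptidase gene 4264 bases beyond CEBPG, one of 0.820 (0.728 to 0.923).

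Start-site windows are shown for CEBPA, which with its divergent neighbour was the lowest of the family, and for CEBPB and CEBPG, which were not. Each holds 250 bases before and 50 bases after a RefSeq start (GRCh38.p14). Capitals mark matches, on either strand, to the C/EBP consensus TTGCNNAA, the cyclic AMP response half-site TGACG, the C/EBP-ATF composite TGATGNAA, the E-box CACGTG, the CCAAT box and the TATA box TATAAA. None of the matches in these 3 windows overlapped.
CEBPA, chr19:33302485-33302784, minus strand: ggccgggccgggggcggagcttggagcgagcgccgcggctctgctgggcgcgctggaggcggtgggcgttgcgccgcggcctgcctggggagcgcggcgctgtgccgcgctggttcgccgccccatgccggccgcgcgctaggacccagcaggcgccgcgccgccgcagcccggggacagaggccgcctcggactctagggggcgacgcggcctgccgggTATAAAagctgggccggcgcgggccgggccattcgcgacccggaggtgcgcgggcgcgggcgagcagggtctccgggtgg
CEBPB, chr20:50190580-50190879, plus strand, the second of 2 starts: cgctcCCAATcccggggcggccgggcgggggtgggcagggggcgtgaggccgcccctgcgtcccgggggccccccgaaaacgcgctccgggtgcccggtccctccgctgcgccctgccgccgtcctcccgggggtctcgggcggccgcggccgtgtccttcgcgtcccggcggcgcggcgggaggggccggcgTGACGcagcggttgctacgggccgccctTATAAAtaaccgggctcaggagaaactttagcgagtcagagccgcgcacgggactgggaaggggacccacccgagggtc
CEBPG, chr19:33373863-33374162, plus strand, the second of 2 starts: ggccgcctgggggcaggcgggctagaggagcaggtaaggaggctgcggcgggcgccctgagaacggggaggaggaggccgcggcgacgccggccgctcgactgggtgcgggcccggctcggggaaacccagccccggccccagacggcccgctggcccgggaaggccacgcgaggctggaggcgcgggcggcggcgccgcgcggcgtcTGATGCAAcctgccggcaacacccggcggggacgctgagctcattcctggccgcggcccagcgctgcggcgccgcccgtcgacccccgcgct

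TATAAA stood 30 bases before the CEBPA start and 29 bases before this CEBPB start, and is found in 11.5% of the 35116 RefSeq windows. TGACG stood 57 bases before the CEBPB start, and 24.6% of windows hold it. CCAAT stood 245 bases before the same start, as in 34.6% of windows. TGATGNAA, the element that ATF4 and C/EBP gamma are known to bind, stood 42 bases before the second CEBPG start and is found in 3.62% of windows. TTGCNNAA, in 10.5% of windows, matched in none of the windows of CEBPA, CEBPB, CEBPG, CEBPE or TRIB2. The E-box, in 7.26% of windows, matched in the window of CEBPA-DT, 22 bases before the CEBPA-DT start. This window shares 214 bases with that of CEBPA, but the E-box lies outside the shared stretch and the CEBPA window held none. GC content was 80.7% in the CEBPA window and 58.7% in the median window. The windows at the first starts, not shown, differed. That of CEBPB held neither TATAAA nor TGACG, and that of CEBPG held no TGATGNAA but had CCAAT 85 and 24 bases before the start. These matches describe letters in the windows.

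CEBPD encodes C/EBP delta, a factor induced early by cytokines, and lies on chromosome 8 (47736913 to 47738164). It had 215 counts or 60.8 CPM in the GLE library, against 783 counts or 136 CPM in the DMSO library. The GLE level was 2.23-fold lower (1.91 to 2.60), with level intervals of 52.9 to 69.5 CPM in GLE and 126 to 145 CPM in DMSO that did not overlap. The fold was 2.19 to 2.36 over the 6 other scalings and depths, but with the GC trend removed the ratio was 0.581 (0.497 to 0.676), no longer beyond 2-fold. The genes on either side did not share its ratio. SPIDR, a DNA repair scaffold gene that ends 607 bases away, had a ratio of 1.29 (0.739 to 2.22), and PRKDC, the catalytic subunit of DNA-dependent protein kinase, one of 0.763 (0.694 to 0.839).

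CEBPB encodes C/EBP beta and lies on chromosome 20 (50190583 to 50192690). It had 157 counts or 44.4 CPM in the GLE library, against 321 counts or 55.6 CPM in the DMSO library. The GLE level was 1.25-fold lower (1.03 to 1.52), and the level intervals of 37.7 to 51.9 CPM in GLE and 49.6 to 62.0 CPM in DMSO overlapped. With the GC trend removed the ratio was 0.981 (0.805 to 1.19), so that the interval included 1, as it did with the DMSO library thinned to the depth of the GLE library (0.810, 0.654 to 1.00). The antisense transcript CEBPB-AS1, which overlaps CEBPB, had 0 counts in the GLE library and 2 in the DMSO library. The sources used here do not state the strand setting of the counting, so reads inside the stretch where these genes overlap cannot be told apart. The nearest measured neighbours, PEDS1 and PTPN1, which encode a plasmalogen desaturase and a tyrosine phosphatase, were on the other side of 1, at 2.08 (1.55 to 2.79) and 1.46 (1.30 to 1.64).

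CEBPG encodes C/EBP gamma, which has no transactivation domain of its own, and lies on chromosome 19 (33373709 to 33382686). It had 188 counts or 53.2 CPM in the GLE library, against 333 counts or 57.6 CPM in the DMSO library, a ratio of 0.923 (0.767 to 1.11). No difference was detectable at this depth, and the interval leaves room for a level up to 1.30-fold lower or 1.11-fold higher in the GLE library.

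CEBPE, the factor of late granulocyte maturation on chromosome 14 (23117306 to 23119255), had 0 counts in both libraries. A floor of 3 counts is 0.848 CPM in GLE and 0.519 CPM in DMSO, and at or below it the gene could not be seen. Myeloid cells, where CEBPE is known to act, were represented by 18 markers with a summed level of 471 CPM in GLE and 497 CPM in DMSO. LYZ, lysozyme, made up nearly all of it, with 436 CPM in GLE and 469 CPM in DMSO. The granulocyte genes ELANE, MPO, AZU1, PRTN3, LTF, CAMP and MMP8 had 0 counts in both libraries. S100A9, a calcium-binding protein abundant in neutrophils, had 12 counts in GLE and 1 in DMSO, and CD14, a monocyte receptor, had 9 in GLE and 37 in DMSO. The part of such cells in the results was not tested.

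The make-up of the family's reads differed between the libraries. Counts were not divided by gene length, since the reads come from 3′ ends, so the shares describe reads and the order of genes within a library is no order of transcript numbers. The summed counts of the 5 C/EBP genes were 902 or 255 CPM in the GLE library and 3002 or 520 CPM in the DMSO library, 2.04-fold lower (1.89 to 2.20). CEBPA took 37.9% of them (34.7 to 41.2) in the GLE library and 52.1% (50.3 to 53.9) in the DMSO library. CEBPB took 17.4% (15.0 to 20.04) in GLE and 10.7% (9.61 to 11.9) in DMSO, and CEBPG 20.8% (18.2 to 23.6) in GLE and 11.1% (9.99 to 12.3) in DMSO. The share of CEBPD was 23.8% (21.1 to 26.8) in GLE and 26.1% (24.5 to 27.7) in DMSO, with overlapping intervals. CEBPE had 0 counts, and the exact upper limit of its share was 0.408% in GLE and 0.123% in DMSO.

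**Figure D2:**
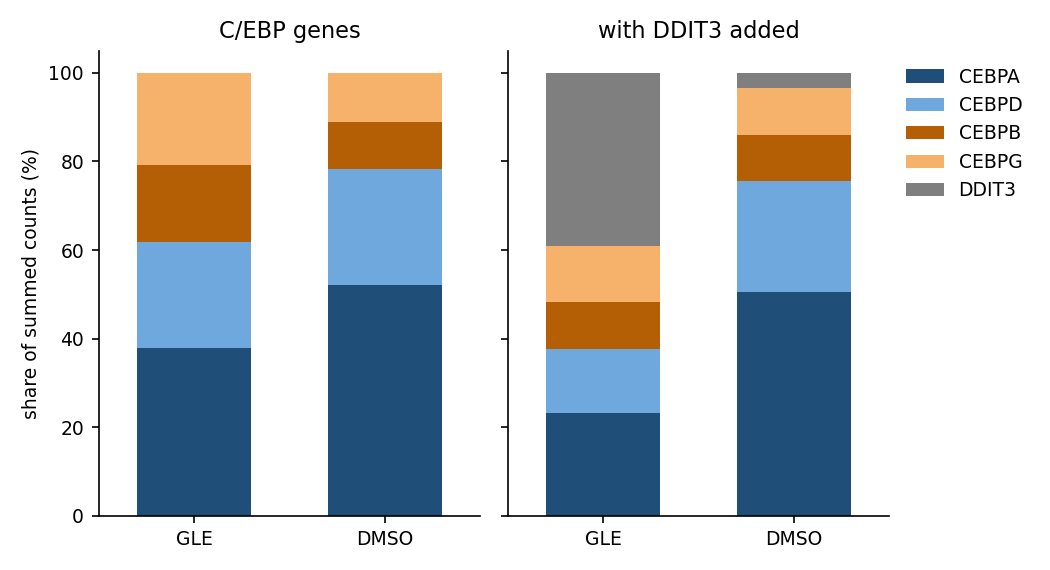
Stacked bars give the share (%) of each gene in the summed counts of the C/EBP genes (left panel) and of the C/EBP genes with DDIT3 added (right panel), in the GLE library and the DMSO library, 1 library each. CEBPA takes 37.9% in GLE and 52.1% in DMSO in the left panel, and DDIT3 takes 39.1% in GLE and 3.32% in DMSO in the right panel.

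Ratios of 1 gene to another within a library do not depend on how the libraries are scaled. There were 0.459 CEBPB counts for each CEBPA count in the GLE library and 0.205 in the DMSO library, a difference of 2.24-fold (exact conditional interval of the odds ratio 1.78 to 2.81). These transcripts have nearly the same GC content, 66.2% for CEBPB and 65.9% for CEBPA. For CEBPG over CEBPA the values were 0.550 in GLE and 0.213 in DMSO, 2.58-fold (2.07 to 3.21), between transcripts of 43.9% and 65.9% GC. CEBPD over CEBPA was 0.629 in GLE and 0.50 in DMSO, a difference of 1.26-fold (1.03 to 1.53). Among the 10 pairs of the 5 measured members, which share genes, the interval excluded 1 for 9, the nearest to 1 being TRIB1 over CEBPD at 1.31 (1.005 to 1.70). The interval included 1 for CEBPG over CEBPB, at 1.15 (0.881 to 1.51). The share of pairs over all measured genes was not computed, so the count of 9 is a description of these genes alone.

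DDIT3 encodes CHOP, a C/EBP relative that pairs with C/EBP proteins and hinders their binding to usual sites. It had 163 CPM in the GLE library and 17.8 CPM in the DMSO library, 9.17-fold higher (7.42 to 11.4). Added to the family sum it took 39.1% of the reads (36.6 to 41.6) in GLE and 3.32% (2.72 to 4.01) in DMSO. There were 1.69 DDIT3 counts for each CEBPA count in the GLE library and 0.0658 in the DMSO library, a 25.6-fold difference (20.1 to 32.9). CEBPZ, a CCAAT-binding protein without a leucine zipper and thus a relative in name alone, had a ratio of 1.26 (1.11 to 1.44).

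**Figure D3:**
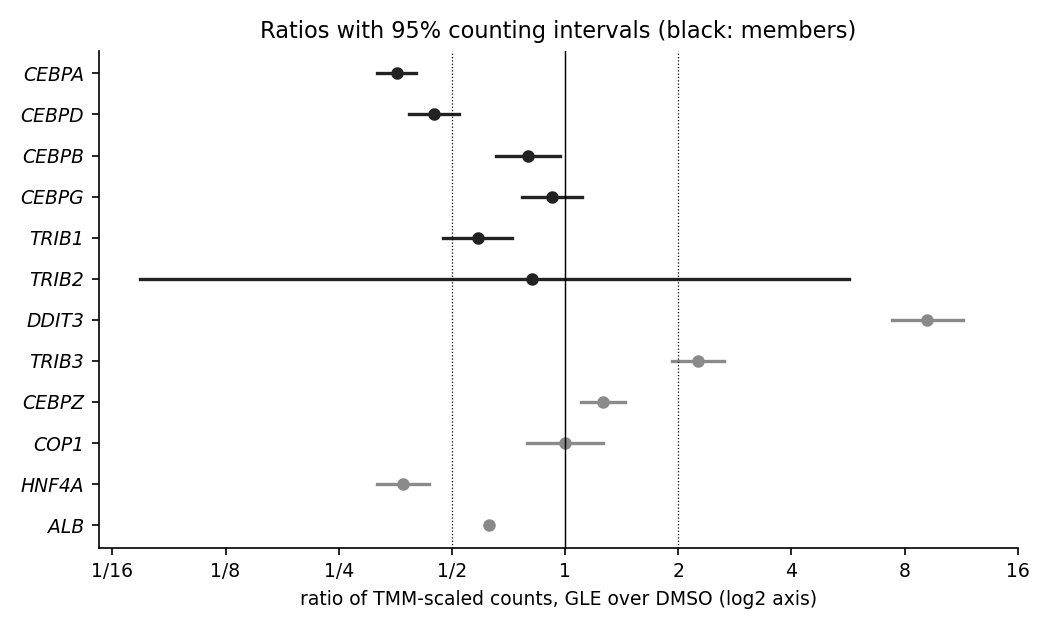
Points give the ratio of TMM-scaled counts, GLE over DMSO (1 library each), on a log2 axis, and lines the exact 95% counting interval, with members in black and other genes in grey. CEBPA at 0.357 and CEBPD at 0.449 lie left of the dotted line at 0.5, and DDIT3 at 9.17 and TRIB3 at 2.25 lie right of the dotted line at 2.

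TRIB1 encodes the Tribbles protein best known in liver for lowering C/EBP alpha protein, and lies on chromosome 8 (125430358 to 125438403). It had 124 counts or 35.1 CPM in the GLE library, against 345 counts or 59.7 CPM in the DMSO library. The GLE level was 1.70-fold lower (1.38 to 2.11), with level intervals of 29.2 to 41.8 CPM in GLE and 53.6 to 66.4 CPM in DMSO that did not overlap. There were 0.363 TRIB1 counts for each CEBPA count in the GLE library and 0.220 in the DMSO library, a difference of 1.64-fold (1.29 to 2.09), so TRIB1 was lower by less than CEBPA. With the GC trend removed, the TRIB1 ratio was 0.617 (0.498 to 0.759). The nearest measured neighbour of TRIB1, the SUMO ligase gene NSMCE2 at 63238 bases, had a ratio of 2.17 (1.77 to 2.67).

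TRIB2, on chromosome 2 (12716936 to 12742734), had 2 counts in the GLE library and 4 in the DMSO library, a ratio of 0.817 with an interval of 0.0739 to 5.70 that allows a difference of many fold either way. TRIB3, the Tribbles gene known as a target of ATF4 and CHOP, had 109 CPM in the GLE library and 48.3 CPM in the DMSO library, 2.25-fold higher (1.93 to 2.64). There were 3.10 TRIB3 counts for each TRIB1 count in GLE and 0.809 in DMSO, a 3.83-fold difference (2.95 to 5.01). STK40, a pseudokinase related to the Tribbles, had a ratio of 0.922 (0.756 to 1.12).

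COP1, the ligase that Tribbles proteins recruit, showed no difference in messenger RNA detectable at this depth. COP1 had 34.2 CPM in the GLE library and 34.3 CPM in the DMSO library, a ratio of 0.999 (0.790 to 1.26). Of 11 measured genes of the COP1 ligase and its partners, 1 was at least 2-fold higher and 0 were lower by that much. The shares over all measured genes were 9.54% and 10.5%. The counting interval was above 1 in 3 of the 11, against 27.7%, and below 1 in 3, against 30.1%. The list thus lay near the shares over all genes, but for the 0 at least 2-fold lower. The 1 higher gene was DET1 at 2.18 (1.06 to 4.57), named after its value was seen. The median log2 ratio of the list was -0.02, beside -0.04 over all measured genes, and was on either side of 0 among the scalings. The cullin gene CUL4B had a ratio of 0.531 (0.426 to 0.657) and the RING subunit gene RBX1 one of 0.803 (0.718 to 0.898). The ubiquitin-conjugating enzyme genes UBE2D2 and UBE2D3 stood at 1.39 (1.21 to 1.58) and 1.27 (1.14 to 1.41).

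Genes for proteins that COP1 or Tribbles bind lay on both sides of 1. Of 15 measured, 3 passed 2-fold upward, against 9.54% of all measured genes, and 2 downward, against 10.5%. Their median log2 ratio was -0.20. The ETS factor gene ETV5, a COP1 substrate, had 79.5 CPM in the GLE library and 14.5 CPM in the DMSO library, 5.47-fold higher (4.27 to 7.06), and JUN, another substrate, was 3.21-fold higher (2.98 to 3.47). ETS2 had a ratio of 0.392 (0.329 to 0.465) and HNF4A, a master factor of hepatocytes, one of 0.372 (0.317 to 0.434).

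CEBPA, CEBPB and CEBPD are genes of 1 exon with GC-rich transcripts, at 65.9%, 66.2% and 70.0% GC, while the longest coding transcript of CEBPG has 2 exons and 43.9% GC and that of TRIB1 has 3 exons and 52.5% GC. Both features moved with the ratios over measured genes as a whole. The sets below were not cleared of the members, so CEBPA, CEBPB and CEBPD are counted in them. Of 164 measured genes of 1 exon, 36.0% were lower in GLE by 2-fold or more, where 9.55% of all 10125 genes with a coding transcript were. Among genes with transcripts above 60% GC, this held for 52.6% of 38 genes of 1 exon and for 12.6% of 1377 genes of 2 or more exons. The median log2 ratio of those 38 genes of 1 exon was -1.04, beside -1.48 for CEBPA, -1.15 for CEBPD and -0.32 for CEBPB, and that of the 1377 genes was -0.20. Of 442 genes within 2 percentage points of the GC content of CEBPA, 15.8% were at least 2-fold lower, with a median log2 ratio of -0.27, against -1.48 for CEBPA. For CEBPB the median of its 408 genes of like GC content was -0.29, beside its own -0.32. For CEBPD the median of 75 such genes was -0.38, beside its own -1.15. The part of exon number in the lower counts of CEBPA and CEBPD was not tested.

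**Figure D4:**
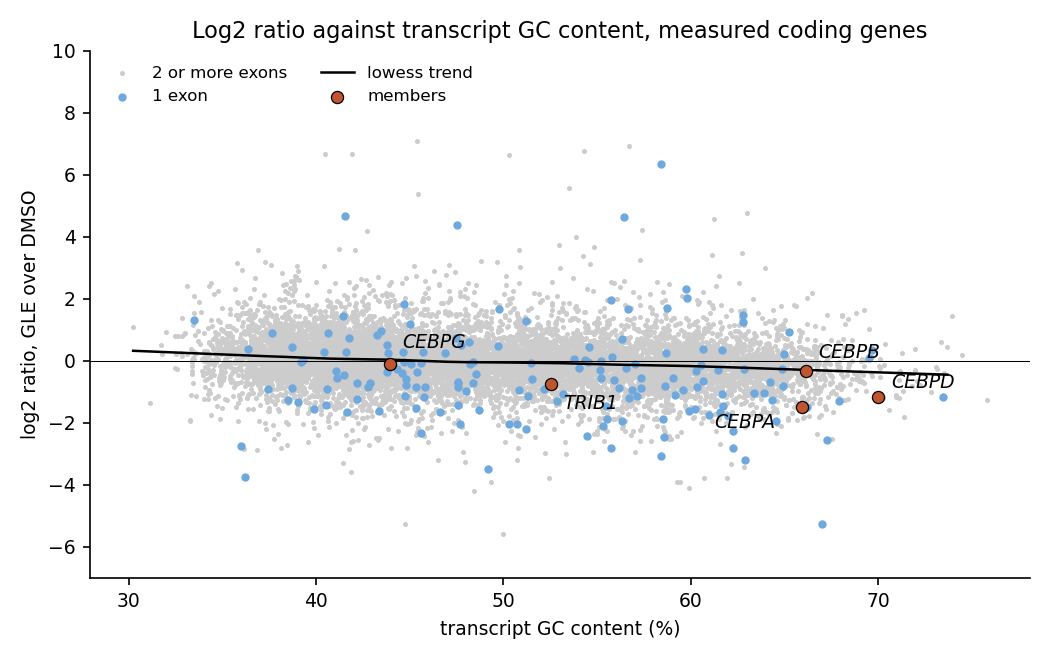
Each point is a measured gene with a coding transcript, placed by transcript GC content (%) and by log2 ratio, GLE over DMSO (1 library each). Blue points are genes of 1 exon, the line is the lowess trend, and orange points are the 5 measured members. CEBPA at -1.48 and CEBPD at -1.15 lie below the trend, and CEBPB at -0.32 lies on it.

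Other bZIP genes of 1 exon lay on both sides of 1. Among them, picked after their values were seen, JUN at 3.21 (2.98 to 3.47) and JUND at 1.27 (1.14 to 1.42) were higher in the GLE library. JUNB at 0.831 (0.714 to 0.965), CREBZF at 0.762 (0.598 to 0.966) and MAF at 0.297 (0.102 to 0.718) were lower. MAF rests on 6 GLE counts. JUND, at 69.7% GC, is as GC-rich as CEBPD.

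The other bZIP genes leaned the other way from CEBPA and CEBPD. Of 37 measured, 9 passed 2-fold upward in GLE, against 9.54% of all measured genes, and 1, MAF, downward, against 10.5%. The counting interval was above 1 in 20 of them, against 27.7%, and below 1 in 6, against 30.1%. The list had a median log2 ratio of 0.53, beside -0.04 over all measured genes. Besides DDIT3, those high by the cautious end of the interval included ATF3, a stress-induced repressor, at 12.0 (10.4 to 13.8), and CREBRF, a regulator of CREB3 factors, at 9.01 (7.26 to 11.3). The bZIP genes closest to CEBPA in log2 ratio over the 2 libraries were MAF, lower by a further 0.17, and HLF and CREB3L2, nearer to 0 by 0.88 and 1.03, so only MAF was close. HLF, a PAR bZIP factor of liver, had 19.8 CPM in GLE and 30.1 CPM in DMSO. Closest to CEBPB were NFE2L3, CREB3L3 and JDP2, all within 0.04, with intervals that included 1.

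Liver genes that C/EBP alpha or beta are known to bind leaned lower. Of 20 measured, 7 passed 2-fold downward in GLE, against 10.5% of all measured genes, and 1 upward, against 9.54%. The counting interval was below 1 in 14 of them, against 30.1%, and above 1 in 3, against 27.7%. The list had a median log2 ratio of -0.61, beside -0.04 over all measured genes. APOB, the apolipoprotein of LDL, had 636 CPM in GLE and 1662 CPM in DMSO, a ratio of 0.383 (0.365 to 0.401). IGFBP1, an insulin-regulated binding protein also induced by stress, went the other way at 5.57 (3.42 to 9.41). Of the other 16 listed genes, 7 had 0 counts in both libraries, among them the bile acid enzyme genes CYP7A1 and CYP8B1.

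Acute phase genes, where C/EBP beta and delta act, also leaned lower. Of 18 measured, 4 passed 2-fold downward in GLE, against 10.5% of all measured genes, and 1 upward, against 9.54%. The counting interval was below 1 in 14 of them, against 30.1%, and above 1 in 1, against 27.7%. The list had a median log2 ratio of -0.63, beside -0.04 over all measured genes. FGA and FGB, fibrinogen chains, had ratios of 0.368 (0.301 to 0.448) and 0.448 (0.370 to 0.539), and CP, ceruloplasmin, one of 0.446 (0.362 to 0.547). The 1 higher gene was MT2A, a metallothionein induced by metals as well as by cytokines, at 27.6 (21.3 to 36.4). CRP, the C-reactive protein gene, had 0 counts in both libraries.

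Genes with C/EBP-ATF elements, to which C/EBP gamma and ATF4 bind, leaned higher while CEBPG itself did not differ detectably. ATF4 had 953 CPM in GLE and 436 CPM in DMSO, a ratio of 2.19 (2.08 to 2.30). Of 22 such target genes measured, 7 passed 2-fold upward in GLE, against 9.54% of all measured genes, and 0 downward, against 10.5%. The counting interval was above 1 in 12 of them, against 27.7%, and below 1 in 2, against 30.1%. The list had a median log2 ratio of 0.51. CTH, an enzyme of cysteine synthesis, had 37.6 CPM in GLE and 5.71 CPM in DMSO, 6.59-fold higher (4.47 to 9.96). CHAC1, which breaks down glutathione, had a ratio of 5.72 (5.05 to 6.50). SESN2, a sestrin that restrains mTORC1, stood at 4.23 (3.83 to 4.68) and SLC7A11, the cystine transporter, at 3.15 (2.76 to 3.60).

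**Figure D5:**
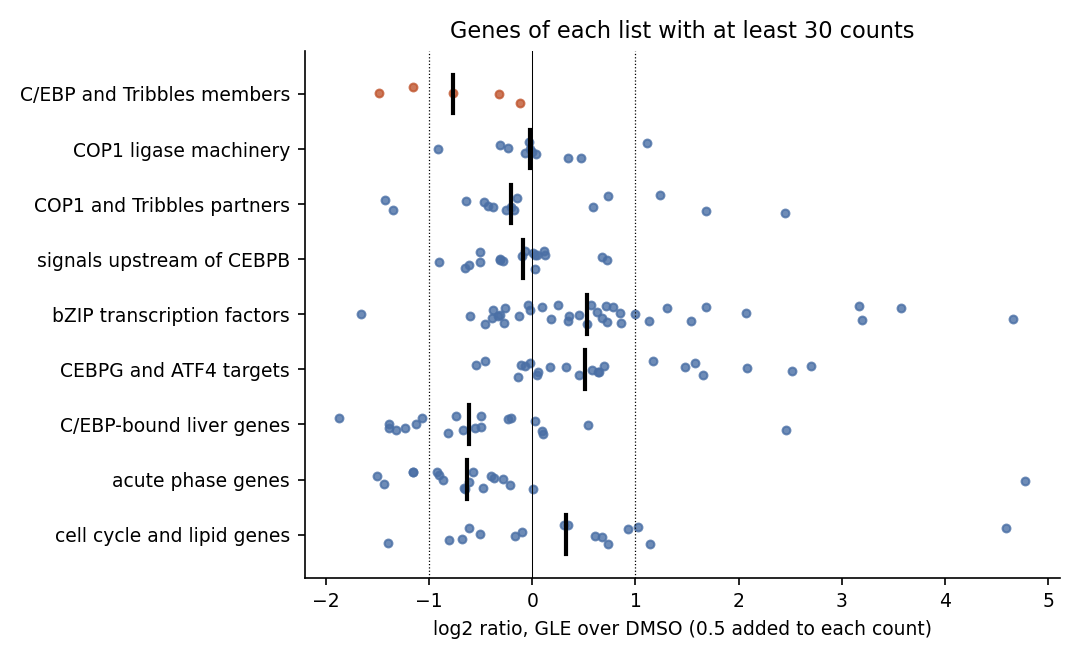
Each point is a gene with at least 30 counts, placed by log2 ratio, GLE over DMSO (1 library each), in rows by gene list, with the vertical bar at the list's median and dotted lines at 2-fold. The medians of the C/EBP-bound liver genes and acute phase genes lie at -0.61 and -0.63, and those of the bZIP genes and of the CEBPG and ATF4 targets at 0.53 and 0.51.

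Of 18 measured genes for kinases, cytokine signalling and RNA-binding proteins upstream of CEBPB, 0 were beyond 2-fold either way. The shares over all measured genes were 9.54% upward and 10.5% downward. The counting interval was above 1 in 2 of the 18, against 27.7%, and below 1 in 4, against 30.1%. Their median log2 ratio was -0.09, beside -0.04 over all measured genes. CREB1, an activator of the CEBPB promoter, had a ratio of 1.59 (1.31 to 1.95), GSK3A, a kinase of C/EBP proteins, one of 1.65 (1.27 to 2.13) and CDK2 one of 0.705 (0.638 to 0.779). IL6R, the interleukin 6 receptor, stood at 0.528 (0.340 to 0.798), and IL6 had 0 counts in both libraries. A list of cell cycle and lipid genes tied to C/EBP proteins had 3 of 16 beyond 2-fold upward, against 9.54% of all measured genes. Downward there was 1, against 10.5%. The counting interval was above 1 in 9 of the 16, against 27.7%, and below 1 in 5, against 30.1%. Its median log2 ratio was 0.33. The CDK inhibitor gene CDKN1A, which encodes p21, a known partner of C/EBP alpha, was 1.90-fold higher (1.63 to 2.23), and CDKN2D, another CDK inhibitor, had 154 counts in GLE and 10 in DMSO. FASN, fatty acid synthase, had a ratio of 0.572 (0.520 to 0.628) and MYC, a growth-promoting transcription factor gene that C/EBP alpha is known to repress, one of 0.369 (0.191 to 0.667).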

How the data were processed

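Each library has 1 deposited file of unnormalized counts, whole numbers by gene symbol. The submitters' processing notes name fastp, STAR, HTSeq and the build GRCh38. The sources used here do not give versions, annotation or strand setting. Per the labels' protocols, libraries were made with a Lexogen QuantSeq kit. Of 43424 symbols, 42739 matched the RefSeq table of GRCh38.p14, which gave positions and windows.

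From the counts, TMM factors were computed with edgeR 4.0.16 under R 4.3.3 (0.972 for GLE, 1.03 for DMSO). Log2 ratios had 0.5 added to each count. Genes with at least 30 counts over both libraries counted as measured. With 1 library a group no differential test was run. DESeq2 1.42.0 gave size factors for 1 alternative. GC content and exons came from the longest coding transcript in GENCODE release 29. The GC trend was a lowess fit (span 0.3, statsmodels 0.14.6) over genes with at least 100 counts. Intervals used SciPy 1.17.1 under Python 3.11.15. Tested on simulated data, the interval covered the true ratio for 95.9% of 10879 unchanged genes, for counting error alone.

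The members, lists and motifs were chosen with earlier results of these data known. Named genes were the members, fixed relatives, nearest measured neighbours, up to 4 of each list by the interval bound nearest to 1, and the 3 bZIP genes closest to CEBPA and to CEBPB. A few of the genes so chosen are not reported here.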

Additional observations from a re-analysis of the deposited data

How the results depend on the processing

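Over 6 other scalings and depths (total counts, DESeq2 size factors, upper-quartile factors, centring the median, library sizes without the 20 most abundant and mitochondrial genes, and thinning), the ratios of CEBPA, CEBPB, CEBPD, CEBPG and TRIB1 kept their direction, and each stayed inside the counting interval of its reported value. The ratio of TRIB2, on 6 counts, was 0.773 to 2.15, on both sides of 1. Scaling by total counts shifted the median gene by -0.08 on the log2 scale. With the GC trend removed, added after seeing the data, the ratio was 0.437 for CEBPA, 0.981 for CEBPB and 0.581 for CEBPD. The trend, fitted to these ratios, was lower for GC-rich transcripts. Genes at least 2-fold higher numbered 1056 in the reported setting, 1655 at a minimum of 10 counts, 613 at 100, 4224 at 1, and 423 where the whole interval had to lie beyond 2-fold. Genes at least 2-fold lower numbered 1164, and 1840, 579, 3989 and 316 in the same settings. With DDIT3 added to the family sum, the GLE shares were 23.1% for CEBPA, 10.6% for CEBPB, 14.5% for CEBPD and 12.7% for CEBPG. They were lower than without DDIT3 because the sum is larger. The DMSO shares were then 50.4% for CEBPA, 10.3% for CEBPB, 25.2% for CEBPD and 10.7% for CEBPG. In this setting the intervals of the GLE and DMSO shares overlapped for CEBPB and CEBPG, and did not overlap for CEBPD. The median log2 ratio of the COP1 ligase genes ran from -0.10 to 0.07 over all settings, on both sides of 0, and the other list medians kept their sign. No paired analysis was possible because each group has 1 library, and no replicate could be left out. At this depth, CEBPE, TRIB2 and CEBPB-AS1 could not be compared.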
